A study of Homo sapiens with 2 samples.

Results

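The transcripts described here are those of 6 microRNA host genes, MIR17HG, MIR22HG, MIR210HG, MIR31HG, MIR100HG and MIR155HG, long non-coding RNAs whose genes carry microRNAs. Their probe sets were all those whose platform gene symbol named one of these genes, alone or beside its embedded microRNAs, which gave 9 probe sets out of 54675 on the array, for 6 of 19848 named genes. HCT116 cells, a line derived from a human colorectal carcinoma, supplied the RNA. One culture had received siRNAs against JMJD1A and JMJD1B, the older names of the histone H3 lysine 9 demethylases KDM3A and KDM3B, and the other a control siRNA, both extracted 2 days after transfection. There was 1 array a condition. No value has a replicate spread or a test, and every difference is one between these samples.

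A host gene is transcribed as a long primary RNA. DROSHA and DGCR8 cut a hairpin out of it in the nucleus, DICER1 trims the hairpin to a short duplex in the cytoplasm, and 1 strand enters an Argonaute protein and pairs through its seed, bases 2 to 8, with messenger RNAs that are then repressed. MIR17HG, the miR-17-92 host, is an oncogenic MYC target. MIR210HG carries miR-210, the microRNA most regularly induced by hypoxia-inducible factors, and MIR155HG (BIC) is a gene of activated immune cells. MIR31HG and MIR22HG have each been linked to both growth promotion and growth restraint in tumours, and MIR100HG carries a cluster of let-7a, miR-100 and miR-125b. The probe sets report host transcripts. Mature microRNAs were not measured.

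The microRNAs these hosts carry are printed to show which silencing programmes the host signals stand beside, and which share a seed. They are the commonly used guide strands from RefSeq (GRCh38.p14), 5′ to 3′, with the seed in capitals. The 13 guides have 11 different seeds, since miR-17-5p shares its seed with miR-20a-5p, and miR-19a-3p with miR-19b-3p. All other seeds occur once, so no seed is shared between different hosts. The guides of MIR17HG are these.
miR-17-5p (chr13:91350618-91350640, plus strand): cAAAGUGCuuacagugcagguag
miR-20a-5p (chr13:91351072-91351094, plus strand): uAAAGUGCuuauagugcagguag
miR-18a-5p (chr13:91350756-91350778, plus strand): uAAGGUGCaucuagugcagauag
miR-19a-3p (chr13:91350939-91350961, plus strand): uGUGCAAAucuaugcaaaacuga
miR-19b-3p (chr13:91351245-91351267, plus strand): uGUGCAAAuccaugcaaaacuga
miR-92a-3p (chr13:91351361-91351382, plus strand): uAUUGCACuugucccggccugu
The guides of the 3 hosts that read at least 2-fold higher by a bright probe set are these, from MIR210HG, MIR22HG and, for the last 3, MIR100HG.
miR-210-3p (chr11:568112-568133, minus strand): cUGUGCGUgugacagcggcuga
miR-22-3p (chr17:1713914-1713935, minus strand): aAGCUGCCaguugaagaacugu
miR-100-5p (chr11:122152275-122152296, minus strand): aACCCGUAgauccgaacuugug
let-7a-5p (chr11:122146568-122146589, minus strand): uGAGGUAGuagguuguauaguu
miR-125b-5p (chr11:122099809-122099830, minus strand): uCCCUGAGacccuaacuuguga
The guides of MIR31HG and MIR155HG follow.
miR-31-5p (chr9:21512158-21512178, minus strand): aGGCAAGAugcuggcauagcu
miR-155-5p (chr21:25573983-25574006, plus strand): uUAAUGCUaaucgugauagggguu

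KDM3B, the first check of the labels, read 496 on the JMJD1A/JMJD1B siRNA array against 3031 on the control array by its brighter probe set, and KDM3A read 3323 against 3884. KDM3B was thus 6.11-fold lower, while KDM3A was 1.17-fold lower, a log2 ratio of -0.22 that lies within the scatter between probe sets given below. With the hybridization controls described next set level it was -0.84, since that scaling lowers every ratio by 0.61. The other KDM3A probe set read 9.18 against 16.9, dim on both arrays. The array is called by its label throughout. The deposited signals were scaled to a trimmed mean of 500.1 on each array. Nevertheless the 18 hybridization control probe sets, which report added bacterial and phage transcripts, had brighter signals on the JMJD1A/JMJD1B siRNA array in every case, with a median log2 ratio of 0.61. The part of this shift in the ratios below was not tested, and values with those controls set level are given beside the hosts and the gene lists. On that scaling 2.15% of measured genes passed 2-fold upwards and 27.8% downwards. The epithelial markers EPCAM, KRT8, KRT18, KRT19, CDH1, VIL1 and CDX2 were all measured, with a summed signal of 121622 on the JMJD1A/JMJD1B siRNA array and 78824 on the control array. Of these, VIL1 read only 104 and 86.2 and CDX2 78.2 and 108, in that order of arrays. The brightest leukocyte marker of 4 with a probe set reached 87.9. Summed signals were 195 and 193 for these leukocyte markers, 772 and 475 for 6 fibroblast markers and 231 and 152 for 4 endothelial markers, with 2, 2 and 1 of them measured and none at 0.

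A signal is called dim here when it lies under 50.4, the median over all non-control probe sets of the mean signal of both arrays, and a probe set counts as measured when its own mean reaches that value. Of the 9 probe sets, 6 were measured and were dim on neither array, covering 5 of the 6 genes. The other 3 were dim on both arrays, and for these only signals are given, with no fold. Among the 9, 3 read at least 2-fold higher on the JMJD1A/JMJD1B siRNA array, against 18.6% of all non-control probe sets, and 1 read at least 2-fold lower, against 15.6%. Among the 6 measured ones 3 were at least 2-fold higher and 0 lower, against 8.89% and 10.4% of all measured probe sets. The lower one is MIR155HG, where both signals were dim. Of all probe sets dim on both arrays, 26.8% passed 2-fold upwards and 20% downwards.

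**Figure D1:**
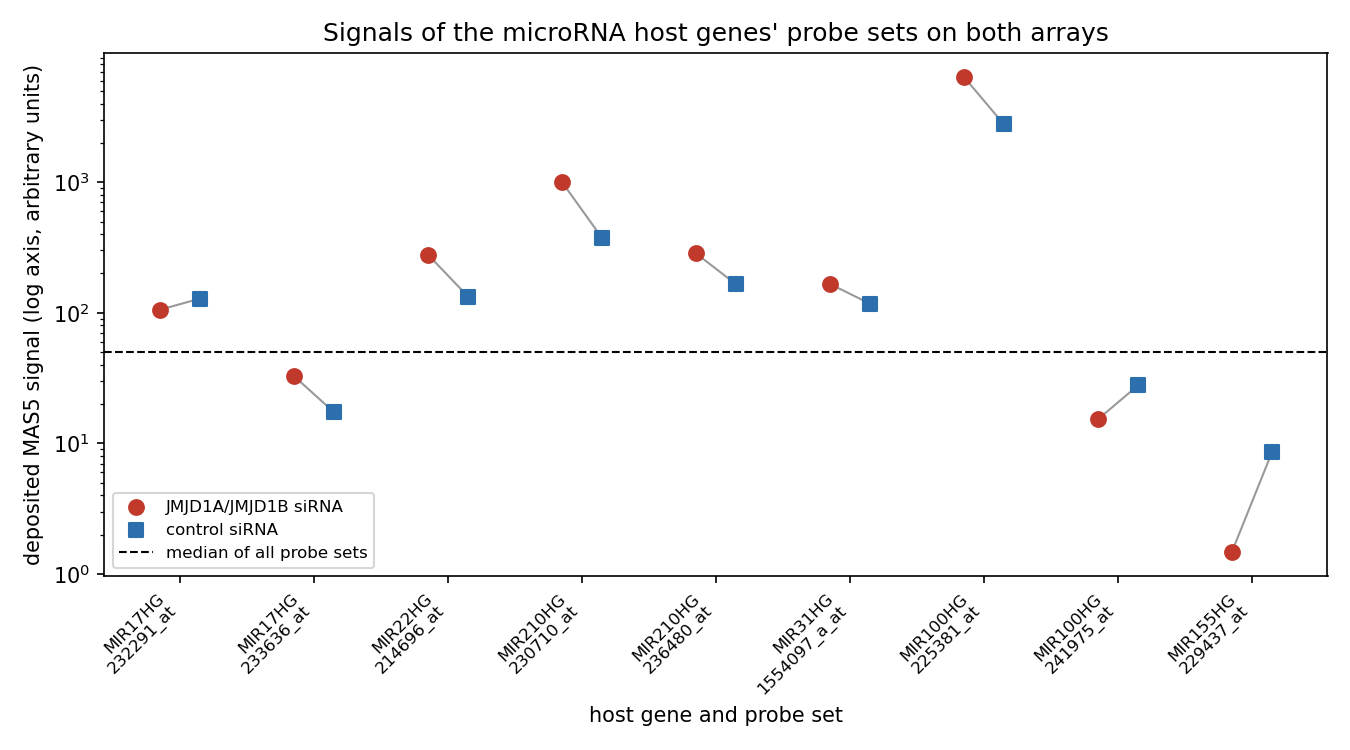
Deposited MAS5 signal (log axis, arbitrary units) of each of the 9 probe sets of the 6 host genes, with the JMJD1A/JMJD1B siRNA array as red circles and the control array as blue squares, 1 array each. The dashed line is the median of 50.4, and the 3 probe sets under it on both arrays belong to MIR17HG, MIR100HG and MIR155HG.

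MIR210HG, on the minus strand of chromosome 11 with its start region at chr11:568408-568707, had the largest ratio of the host genes. The brighter of its probe sets read 1005 on the JMJD1A/JMJD1B siRNA array against 374 on the control array, a log2 ratio of 1.43 (2.69-fold higher). It stood at the 85.6th percentile of non-control signals on the first and the 74.9th on the second. The other read 286 on the JMJD1A/JMJD1B siRNA array against 165 on the control array, a log2 ratio of 0.79 (1.73-fold higher). Both probe sets thus went in the same direction, with the dimmer one under 2-fold. With the arrays set level on the hybridization controls the ratios were 0.82 and 0.18. The miR-210 guide lies 324 bases downstream of the host's first base.

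MIR100HG had a bright and a dim probe set. The brighter probe set read 6416 on the JMJD1A/JMJD1B siRNA array against 2770 on the control array, a log2 ratio of 1.21 (2.32-fold higher), at the 96.9th and 93.1st percentile. Its other probe set read 15.2 on the JMJD1A/JMJD1B siRNA array against 27.8 on the control array, dim on both and in the opposite order. RefSeq gives 6 start regions for this gene on the minus strand of chromosome 11, from chr11:122100797-122101096 to chr11:122422822-122423121, so its probe sets need not report the same transcripts. Some of these starts, among them chr11:122100797-122101096, lie downstream of the miR-100 and let-7a guides. Transcripts from there would not hold those guides. Where each probe set lies in the gene was not analysed here. With the hybridization controls level the bright probe set stood at 0.60.

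MIR22HG (chromosome 17, minus strand, start region chr17:1716161-1716460) has 1 probe set, which the platform names together with MIR22. It read 279 on the JMJD1A/JMJD1B siRNA array against 133 on the control array, a log2 ratio of 1.07 (2.10-fold higher). This is close to the 2-fold threshold. The ratio was 0.98 with the arrays set level on the median of all probe sets, 0.85 with a pseudocount of 50 and 0.46 with the hybridization controls level, all under 2-fold. The miR-22 guide begins 2275 bases downstream of the first base.

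MIR31HG (chromosome 9, minus strand, start region chr9:21559749-21560048) hosts miR-31 in an intron, 47620 bases downstream of its first base. Its single probe set read 166 on the JMJD1A/JMJD1B siRNA array against 117 on the control array, a log2 ratio of 0.50 (1.42-fold higher). This is smaller than 0.54, the per-probe-set SD of log2 ratios that the differences between the 2 brightest measured probe sets of 6227 genes give. The sign turned, to -0.11, with the hybridization controls level.

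MIR17HG (chromosome 13, plus strand, start region chr13:91347437-91347736) was the only measured host with a ratio below 0. The brighter probe set, which the platform names with the 6 microRNAs of the cluster, read 106 on the JMJD1A/JMJD1B siRNA array against 129 on the control array, a log2 ratio of -0.28 (1.22-fold lower), within the same SD of 0.54. Its other probe set read 32.8 on the JMJD1A/JMJD1B siRNA array against 17.3 on the control array, dim on both and in the opposite order. With the hybridization controls level the brighter probe set stood at -0.89. That scaling lowers every ratio by 0.61, so this value is not set against the SD.

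MIR155HG (chromosome 21, plus strand, start region chr21:25561895-25562194) was dim on both arrays. Its single probe set read 1.46 on the JMJD1A/JMJD1B siRNA array against 8.53 on the control array, at the 1.94th and 18.8th percentile of non-control signals. Detection calls were not used here, so these arrays give no level for this host beyond a dim signal. For probe sets below the filter the scatter was wide. The same SD was 1.59 over 3894 genes with 2 such probe sets, and in 48.7% of these genes the probe sets went in opposite directions, against 28.7% among measured ones. The same holds for the dim second probe sets of MIR17HG and MIR100HG, whose order between the arrays opposes that of the brighter ones.

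**Figure D2:**
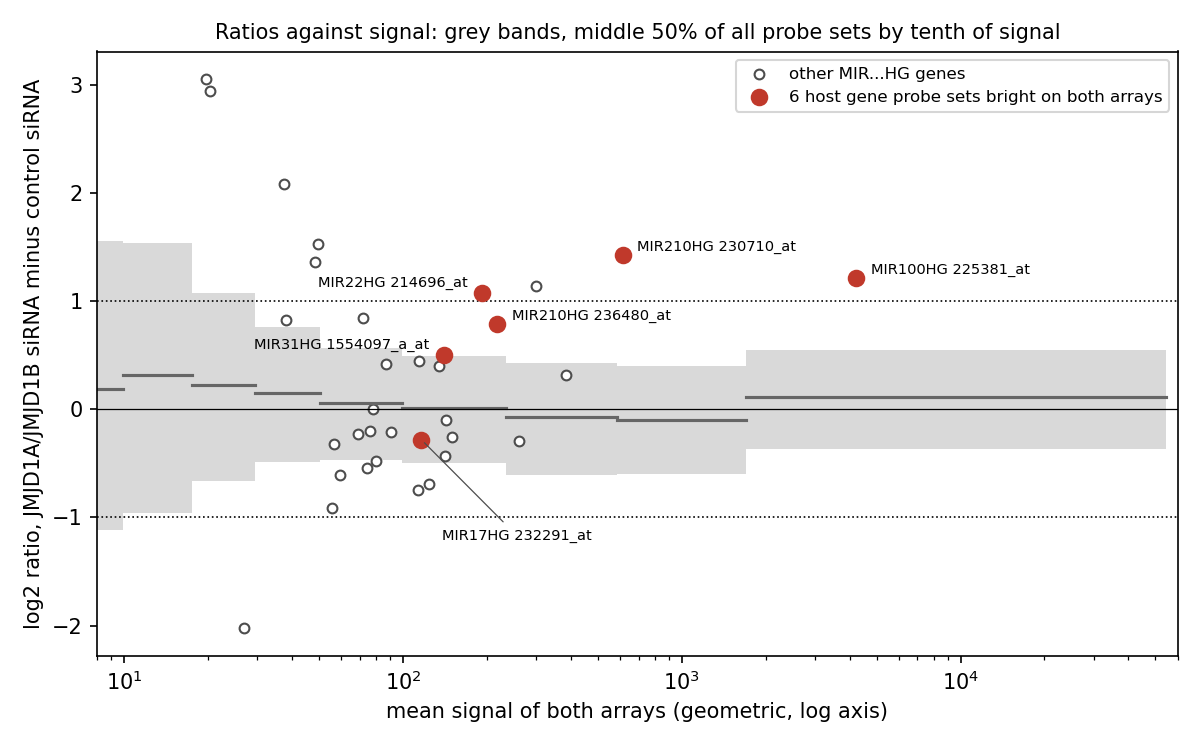
Log2 ratio, JMJD1A/JMJD1B siRNA minus control siRNA, against the geometric mean signal of both arrays (log axis). Red points are the 6 measured host gene probe sets, open circles the 28 probe sets of other MIR...HG genes not dim on both arrays, grey bands the middle 50% and grey bars the median ratio of non-control probe sets in each of 10 equal signal classes; MIR210HG (1.43 and 0.79), MIR100HG (1.21) and MIR22HG (1.07) lie above their bands, MIR31HG (0.50) at the upper edge.

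Set beside probe sets of similar signal, the 3 host probe sets past 2-fold stood above the middle 50% of their class. This follows from the 2-fold threshold, since the middle 50% of each of these classes ended below it. In the brightest of 10 signal classes, which holds MIR100HG, 7.45% of probe sets read at least 2-fold higher and the middle 50% ran from -0.37 to 0.55. In the next class down, with the bright MIR210HG probe set, 7.05% did and the range was -0.60 to 0.40. In the signal class of 98.8 to 234, with 4 host probe sets (MIR22HG at 1.07, the dimmer MIR210HG at 0.79, MIR31HG at 0.50 and MIR17HG at -0.28), 8.95% did and the range was -0.49 to 0.49. These shares are those of single probe sets on these arrays and no test of the hosts.

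The start regions of MIR210HG and MIR22HG are printed to show matches to ACGTG and GCGTG, the core bound by hypoxia-inducible factors, in hosts that read at least 2-fold higher and have a single RefSeq start region. MIR100HG also read at least 2-fold higher, but has 6 start regions, of which 1 holds ACGTG and 0 hold GCGTG, and they are not printed. Each is 300 bases of RefSeq (GRCh38.p14), 5′ to 3′ on the strand of the gene, from 250 before the first base to 50 after it, with every match to ACGTG or GCGTG on either strand in capitals. Of 35116 such windows in the table, 21.4% hold ACGTG, 36.5% hold GCGTG and 48.4% hold at least 1 of these, so a match is common. The CACGTG form, an E-box bound by MYC, contains ACGTG on both strands and is in 7.26% of windows.
MIR210HG (chr11:568408-568707, minus strand): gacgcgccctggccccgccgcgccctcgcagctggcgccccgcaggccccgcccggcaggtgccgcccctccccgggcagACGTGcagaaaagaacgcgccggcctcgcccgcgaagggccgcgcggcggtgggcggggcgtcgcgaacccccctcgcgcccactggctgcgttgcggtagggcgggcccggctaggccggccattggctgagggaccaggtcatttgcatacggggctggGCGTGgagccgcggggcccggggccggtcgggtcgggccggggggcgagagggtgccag
MIR22HG (chr17:1716161-1716460, minus strand): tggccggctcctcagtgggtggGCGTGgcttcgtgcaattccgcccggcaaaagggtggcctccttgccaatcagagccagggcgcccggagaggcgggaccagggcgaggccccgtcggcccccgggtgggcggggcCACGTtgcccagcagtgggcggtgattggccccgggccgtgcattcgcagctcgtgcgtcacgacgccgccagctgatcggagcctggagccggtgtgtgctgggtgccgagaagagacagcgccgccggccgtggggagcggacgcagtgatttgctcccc
The MIR210HG window holds 1 match to each form. The MIR22HG window also holds 1 of each, with ACGTG read on the opposite strand. MIR155HG, dim on both arrays, holds 1 of each as well. MIR17HG and MIR31HG hold neither, and no window of the 6 hosts holds CACGTG. The AP-1 motif TGANTCA, in 7.71% of all windows, was found in MIR155HG alone among the 6 hosts. A match is a description of the letters and shows no binding.

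The nearest named protein-coding genes on each side of the hosts, some of them megabases away, had ratios of either sign. WDR81, which starts 313 bases from the first base of MIR22HG on the opposite strand, read 125 on the JMJD1A/JMJD1B siRNA array against 339.8 on the control array (2.72-fold lower), while the host was 2.10-fold higher. Of the other neighbours of MIR22HG, PRPF8, the core splicing factor, had a log2 ratio of -0.62, TLCD2 of 0.23 and SERPINF2 of -0.04. Near MIR210HG, PHRF1 read 218 on the JMJD1A/JMJD1B siRNA array against 512 on the control array (2.35-fold lower). LMNTD2 stood at 0.91, the interferon regulatory factor gene IRF7 at 0.74 and RASSF7 at 0.36.

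BLID, a gene inside the MIR100HG locus, read 127 on the JMJD1A/JMJD1B siRNA array against 53.7 on the control array (2.37-fold higher). The loci overlap, and signals from overlapping transcripts cannot be told apart here. Outside that locus SC5D, an enzyme of cholesterol synthesis, stood at 0.67, SORL1 at 0.48 and UBASH3B at -0.93, and CRTAM was dim on both arrays. The interferon gene IFNE, which overlaps the MIR31HG locus on the same strand, and the nearby IFNA1 and IFNA8 were dim on both arrays. Also near MIR31HG were 2 measured genes. MTAP, of the methionine salvage pathway, stood at 0.59 and CDKN2A at -0.37. The nearest protein-coding genes to MIR17HG (SLITRK5, SLITRK6, GPC5 and GPC6) were all dim on both arrays. Around MIR155HG, the close neighbour MRPL39 stood at -0.21 and TMPRSS15, megabases away, at -1.07, with JAM2 and NCAM2 dim on both arrays.

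Other genes named as microRNA hosts by their symbol (MIR...HG) were mostly dim. They numbered 42 genes with 71 probe sets, of which 43 were dim on both arrays. Among the 21 measured probe sets 1 passed 2-fold upwards and 0 downwards, and the median log2 ratio was -0.23. The higher one was MIR23AHG, host of miR-23a and miR-24, whose brighter probe set read 445 on the JMJD1A/JMJD1B siRNA array against 202 on the control array (2.20-fold higher), with its other probe set at 0.44. Thus 3 of 6 measured probe sets of the 6 named hosts were at least 2-fold higher, against 1 of 21 of the other hosts. Of the other hosts' 28 probe sets not dim on both arrays, 6 were at least 2-fold higher and 1 lower. Apart from that of MIR23AHG, each of these was dim on 1 array and below the filter. Each was thus counted only through the array where it was bright. The share of all probe sets under this rule was not computed. The difference between the 6 hosts and the others was not tested, and the 6 hosts were chosen with earlier results of these data known. Of the 15 measured genes of the other hosts, 0 were at least 2-fold higher and 6 lower with the hybridization controls level.

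MIR503HG, whose RefSeq span holds miR-503 and lies beside miR-424, had 3 probe sets. All read brighter on the JMJD1A/JMJD1B siRNA array. They were 84.3, 76.8 and 56.6 there against 29.3, 18.2 and 6.82 on the control array, where all 3 were dim. As read, these were 2.88-fold, 4.23-fold and 8.29-fold higher. With the dim signal raised to 50.4 they were at least 1.67-fold, 1.52-fold and 1.12-fold higher. These are lower bounds, none of which reaches 2-fold. The guides of this locus are shown because their seeds differ only in the last base.
miR-424-5p (chrX:134546680-134546701, minus strand): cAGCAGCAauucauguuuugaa
miR-503-5p (chrX:134546371-134546393, minus strand): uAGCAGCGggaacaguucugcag
The brighter MIRLET7BHG probe set read 77.3 on the JMJD1A/JMJD1B siRNA array against 30.1 on the control array (at least 1.53-fold higher), and MIR670HG read 56.3 against 7.34 (at least 1.12-fold higher). One MIR570HG probe set read 13.4 on the JMJD1A/JMJD1B siRNA array against 54.5 on the control array (at least 1.08-fold lower), and its brighter probe set stood at -0.43.

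Genes that carry microRNAs within protein-coding or other long transcripts went both ways. Of 39 listed, 35 were measured, with 3 past 2-fold upwards and 5 downwards, against 8.91% and 8.55% of 12632 measured genes. Their median log2 ratio was -0.06, beside 0.04 for all measured genes. The counts were 1 upwards and 14 downwards with the hybridization controls level. With a pseudocount of 50 or a mean signal of at least 100, 1 passed upwards and 4 downwards. MCM7, a replicative helicase subunit whose introns hold the miR-106b-25 cluster, a relative of miR-17-92, read 3629 on the JMJD1A/JMJD1B siRNA array against 8735 on the control array (2.41-fold lower, probe sets at -1.27 and -1.18). DLEU2, host of miR-15a and miR-16-1, read 267 on the JMJD1A/JMJD1B siRNA array against 1461 on the control array by its brightest probe set (5.47-fold lower), the 4 ranging over -2.45 to 0.11. PPARGC1B, host of miR-378a, was 2.80-fold lower (probe sets at -1.48 and -0.55). AOPEP, host of the miR-23b cluster, was 3.32-fold higher by its brightest probe set and had another at -1.52, so its probe sets disagree.

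Of 32 listed genes that make and use microRNAs, 30 were measured, with 5 past 2-fold downwards, 1 upwards and a median of -0.18, beside 8.55% and 8.91% of all measured genes. The count downwards was 3 after quantile normalization or loess, 2 with a pseudocount of 50 and 0 at 3-fold, and 11 with the hybridization controls level, where 0 passed upwards. XPO5, which exports the hairpin from the nucleus, read 981 on the JMJD1A/JMJD1B siRNA array against 2420.4 on the control array (2.47-fold lower; 3 probe sets, -1.96 to -0.62). The Argonaute gene AGO1 was 2.09-fold lower (4 probe sets between -1.54 and -0.35) and AGO4 2.10-fold higher (3 probe sets between 1.07 and 2.51). KHSRP, which aids the maturation of let-7 and other precursors, was 2.12-fold lower where brightest, the 4 probe sets ranging over -1.30 to 0.84. DICER1, which trims the hairpin, read 558 on the JMJD1A/JMJD1B siRNA array against 1145 on the control array (2.05-fold lower, probe sets between -1.04 and -0.38). The nuclear pair DROSHA and DGCR8, named for their role in the pathway after their values were seen, stood at -0.76 and -0.97.

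Regulators known to act on the hosts were measured for 17 of 19 listed genes, with 4 past 2-fold upwards, 0 downwards and a median of -0.09, beside 8.91% and 8.55% of all measured genes. These counts were 2 upwards and 5 downwards with the hybridization controls level. EPAS1, which encodes HIF-2 alpha, read 5135 on the JMJD1A/JMJD1B siRNA array against 2352 on the control array (2.18-fold higher). The AP-1 genes FOS and FOSB, of a factor that acts on MIR155HG in immune cells, were 16.9-fold and 4.05-fold higher while MIR155HG was dim. SMAD3, of the TGF-beta pathway, was 2.06-fold higher (3 probe sets between 0.76 and 2.08). MYC, the activator of MIR17HG, stood at -0.43 and HIF1A at -0.79, and both are named here for their role after their values were seen.

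**Figure D3:**
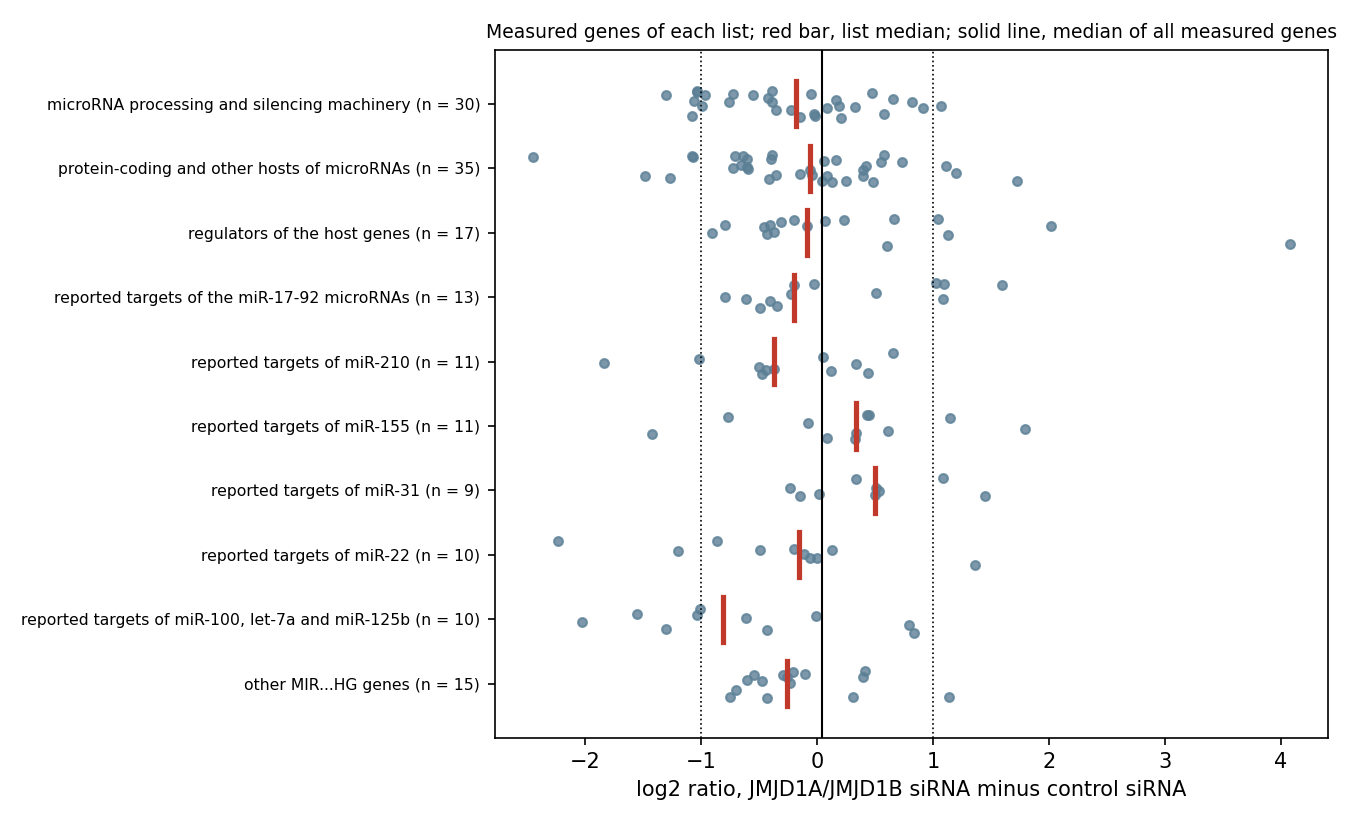
Log2 ratio, JMJD1A/JMJD1B siRNA minus control siRNA, of each measured gene (blue-grey points, brightest probe set, 1 array a condition) in 10 lists. Red bars are list medians, the solid line the median of 0.04 over all measured genes and dotted lines mark 2-fold; the lowest list median, -0.81, is that of the reported targets of miR-100, let-7a and miR-125b.

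Reported targets of the hosts' microRNAs are given beside the hosts by their messenger RNA, from lists drawn from general knowledge. Some genes stand in more than one list. For MIR210HG, 11 of 12 listed miR-210 targets were measured, with 2 past 2-fold downwards, 0 upwards and a median of -0.37, beside 8.55% and 8.91% of all measured genes. The count downwards was 1 after quantile normalization or loess or with a pseudocount of 50, and 5 with the hybridization controls level. Without probe sets marked as cross-hybridizing or shared (_x_at and _s_at) it was 1 of the 7 genes left, beside 10.6% of measured genes. GPD1L, a glycerol-3-phosphate dehydrogenase-like enzyme, read 687 on the JMJD1A/JMJD1B siRNA array against 2448 on the control array (3.57-fold lower), and the receptor gene FGFRL1 was 2.02-fold lower. The iron-sulfur scaffold gene ISCU, named for its role after its value was seen, stood at 0.12.

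For MIR100HG, 10 of 18 listed targets of miR-100, let-7a and miR-125b were measured, with 5 past 2-fold downwards, 0 upwards and a median of -0.81, beside 8.55% and 8.91% of all measured genes. The count downwards was 3 after quantile normalization or loess or with a pseudocount of 50, and 1 at 3-fold. With the hybridization controls level it was 7, where 27.8% of measured genes were lower. Without a filter on signal it was 8 of the 14 listed genes with a probe set, beside 12.7% of all genes. SMARCA5, a chromatin remodelling ATPase, read 966 on the JMJD1A/JMJD1B siRNA array against 3945 on the control array (4.08-fold lower, 3 probe sets between -2.54 and -1.76). The cell cycle phosphatase CDC25A was 2.94-fold lower (3 probe sets between -1.73 and -1.35) and the kinase MTOR 2.47-fold lower. DICER1, described above, is also a let-7 target. Several of these genes serve growth and the cell cycle, and the list overlaps the lower machinery genes through DICER1. Of the 10 measured, 2 stood above 0, HMGA2 at 0.84 and IGF1R at 0.79, named after their values were seen.

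For MIR22HG, 10 of 12 listed targets were measured, with 1 at least 2-fold higher, 2 lower and a median of -0.15, beside 8.91% and 8.55% of all measured genes. Without _x_at and _s_at probe sets 1 of the 9 genes left was higher and 0 lower, beside 9.09% and 10.6% of measured genes. With the hybridization controls level 0 were higher and 4 lower. The deacetylase SIRT1 read 328 on the JMJD1A/JMJD1B siRNA array against 1543 on the control array (4.70-fold lower). MAX, the partner of MYC, was 2.29-fold lower where brightest, the 5 probe sets ranging over -1.20 to 0.45. The nuclear receptor PPARA was 2.57-fold higher, the 6 probe sets ranging over -0.34 to 1.57. For MIR31HG, 9 of 11 were measured, with 2 at least 2-fold higher, 0 lower and a median of 0.50, beside the same 8.91% and 8.55%. The count higher was 1 with the arrays level on the median or with a pseudocount of 50, and 0 at 3-fold. These were the Hippo kinase LATS2, 2.73-fold higher (probe sets at 1.45 and 1.02), and the integrin ITGA5, 2.12-fold higher. With the hybridization controls level this median turned to -0.11, with 0 genes past 2-fold.

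For MIR17HG, 13 of 15 listed targets of the cluster were measured, with 4 at least 2-fold higher, 0 lower and a median of -0.20, beside 8.91% and 8.55% of all measured genes, so the list's median and its past-threshold genes point in different directions. The count higher was 2 with the arrays level on the median and 1 with a pseudocount of 50 or at 3-fold. Without _x_at and _s_at probe sets it was 2 of the 10 genes left, beside 9.09% of measured genes. It was 0, with 4 genes lower, with the hybridization controls level. CDKN1A, the cyclin-dependent kinase inhibitor p21, read 8281 on the JMJD1A/JMJD1B siRNA array against 2743 on the control array (3.02-fold higher). CCN2 was at least 2.06-fold higher against the filter, ITGA5 stands in this list too, and the deubiquitinase CYLD was 2.04-fold higher where brightest, the 3 probe sets ranging over -0.68 to 1.03. For MIR155HG, 11 of 15 listed targets were measured, with 2 at least 2-fold higher, 1 lower and a median of 0.34, beside the same 8.91% and 8.55%. Without _x_at and _s_at probe sets 7 genes were left, with 0 higher and 0 lower, beside 9.09% and 10.6% of measured genes. The cytokine signalling inhibitor SOCS1 was 3.46-fold higher (3 probe sets between 1.25 and 2.78) and JARID2, a Polycomb cofactor, 2.21-fold higher (probe sets at 1.14 and 0.63). INPP5D read 33.8 on the JMJD1A/JMJD1B siRNA array against 90.4 on the control array, at least 1.79-fold lower. With the hybridization controls level the miR-155 target median was -0.27, with 1 gene higher and 2 lower.

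**Figure D4:**
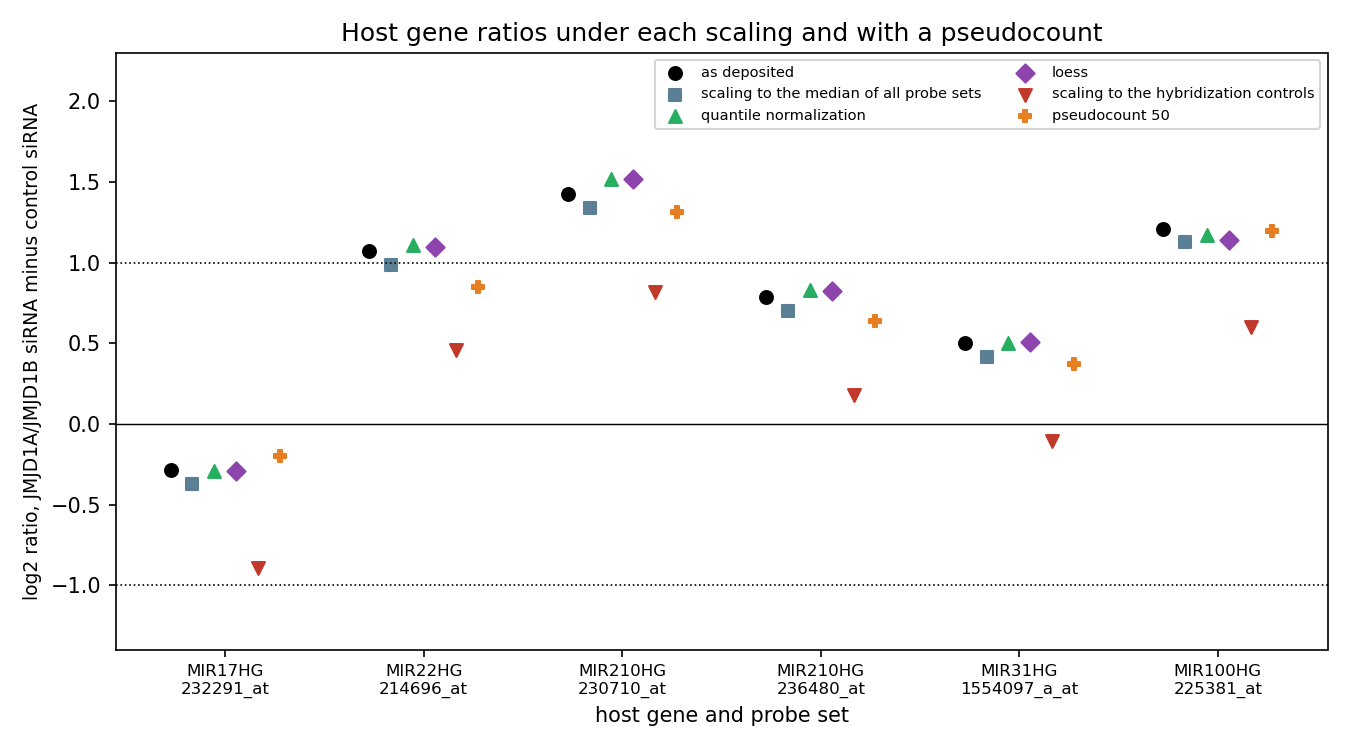
Log2 ratio, JMJD1A/JMJD1B siRNA minus control siRNA, of the 6 measured host gene probe sets as deposited and under 4 other scalings and a pseudocount of 50. The red triangles, with the arrays level on the hybridization controls, are the lowest of each set, and only there does MIR31HG lie below 0 (-0.11).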

How the data were processed

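Total RNA (0.5 ug) of 2 samples was labelled with biotin and hybridized to 1 array each, per the labels. The deposited values are linear signal intensities, which the authors computed by MAS5 (per the submitters' processing notes); version and settings are not stated there. Leaving out the highest and lowest 2%, the mean signal was 500.1 on either array, the mark of a global scaling. All 2 columns were mapped to a sample.

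Names came from the annotation of the platform, which gave 41091 non-control probe sets 1 gene symbol, 1801 several and 11721 none. Where several symbols held 1 gene and otherwise only microRNAs, the gene was used, as for 197 probe sets. For genes outside the 6 hosts, the probe set brightest in mean log2 signal stood for the gene, and a mean of at least 50.4 counted as measured, which left 12632 genes. Log2 ratios are JMJD1A/JMJD1B siRNA minus control, with no pseudocount. With 1 array a group there was no test, and likeness of pattern between genes was not computed.

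The hosts, lists and rules were chosen with earlier results of these data known. Named are all host probe sets, up to 4 genes per list with the largest change past 2-fold (1 gene if none passed), every MIR...HG probe set changed 2-fold and not dim on both arrays, and the 2 nearest named protein-coding genes on each side. Sequences came from RefSeq tables (GRCh38.p14). The alternatives were 4 scalings, a pseudocount, 2 fold thresholds, 2 filters and 2 rules for probe sets. Python 3.11.15, numpy 2.4.6, pandas 2.3.3 and statsmodels 0.14.6 were used, and the calculation was tested on simulated data.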

Additional observations from a re-analysis of the deposited data

How the results depend on the processing

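Each of the 6 measured host probe sets kept its direction under the 4 other scalings and the pseudocount, except MIR31HG. With the arrays level on the hybridization controls, MIR31HG turned to -0.11, MIR17HG stood at -0.89, MIR22HG at 0.46, MIR210HG at 0.82 and 0.18 and MIR100HG at 0.60, which follows from subtracting 0.61. On that scale 0 of the 9 host probe sets were at least 2-fold higher and 2 lower, and both lower ones were dim on both arrays. Among all 138 list genes together, 16 were at least 2-fold higher and 19 lower as deposited with a median of -0.06, against 4, 48 and -0.67 on that scale. The shares of all measured genes were 8.91% and 8.55% as deposited, and 2.15% and 27.8% on that scale. With a pseudocount of 50, which shrinks low signals, the list counts were 9 and 12, beside 5.86% and 6.48% of measured genes. There 0 host probe sets were lower. At 1.5-fold the counts were 26 and 36 for list genes, beside 21.7% and 19.5% of measured genes, and 5 and 2 for host probe sets. The 2 lower host probe sets, and the dimmer MIR17HG one among the 5 higher, were dim on both arrays. At 3-fold the counts were 5 and 4 for list genes, beside 2.29% and 2.26%, and 0 host probe sets were higher. Quantile normalization and loess each put 2 host probe sets lower, both dim on both arrays, and either filter on host probe sets, at the median or at 100, left 0 lower. Of 220 counts for single lists under the alternatives 139 stayed within 1.5 times, and of 110 list medians 100 moved by less than 0.54. No paired analysis was possible because each group had 1 array. Signal over background limits MIR155HG and the dim second probe sets of MIR17HG and MIR100HG.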
